A study of Mus musculus with 12 samples.

Results

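The genes described here are 10 genes listed as smooth muscle contractile genes: Acta2, Actg2, Tagln, Myl9, Mylk, Cnn1, Cnn2, Tpm1, Tpm2 and Pdgfrb. All but Pdgfrb, a receptor, encode parts or regulators of the actin and myosin machinery of smooth muscle, and several are not confined to it. They were taken by symbol from the 48709 genes of the count tables, all 10 were found, and their counts were compared over the 4 groups of the study. The list was chosen by the levels and fold changes of these same counts, so the values below describe the genes and are not independent evidence about them. All cells came from hypothalami of C57BL/6 mice at embryonic day 18, were grown for a week as neurospheres (free-floating clusters of neural progenitors and their progeny), and received virus at an MOI of 10 and, 24 h later, basic fibroblast growth factor at 10 ng/ml. In the Hcrt sort an adeno-associated virus carried an mCherry reporter for cells that express hypocretin, and mCherry-positive and mCherry-negative cells were collected. In the MCH sort a lentivirus carried an EGFP reporter for cells that express melanin-concentrating hormone, and EGFP-positive and EGFP-negative cells were collected. Each of the 4 groups has 3 SMART-Seq v4 libraries, and the RNA input was 0.8 ng in the Hcrt sort and 2 ng in the MCH sort, so virus, reporter and RNA input cannot be told apart between sorts. The promoters of the reporters are not given in the sources used here, negative cells came from virus-treated cultures too, and nothing in the labels ties replicates to separate cultures. The p-values therefore cover the spread between samples alone, and that spread may be technical.

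Smooth muscle cells shorten when calcium activates myosin light chain kinase (Mylk), which phosphorylates the regulatory light chain (Myl9) and lets myosin pull on filaments of alpha-actin (Acta2) and gamma-actin (Actg2). Tropomyosins (Tpm1, Tpm2), calponins (Cnn1, Cnn2) and transgelin (Tagln) lie along those filaments. Many of these genes are switched on by serum response factor (Srf), which binds a DNA element called the CArG box together with myocardin (Myocd) or its relatives. In brain the set marks the muscle cells and pericytes of vessels, whose receptor Pdgfrb answers platelet-derived growth factor. Several members, above all Tpm1, Cnn2 and Myl9, are also made by cells that are not muscle.

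Libraries held 16.3 to 32.9 megareads (M reads) in genes, and 31.4% to 38.2% of counted reads named no gene. That share was 31.4% to 35.7% in EGFP-positive against 36.2% to 38.2% in EGFP-negative libraries, and overlapped in the Hcrt sort. The mitochondrial share of reads in genes was 0.766% to 0.872% in EGFP-positive against 1.16% to 1.36% in EGFP-negative libraries, and 1.06% to 1.54% in mCherry-positive against 0.805% to 0.953% in mCherry-negative libraries. Neither sort overlapped in it, and its part in the results was not tested. Counts of replicates differed by more than sampling noise in every pair (chi-square divided by its degrees of freedom, 6.54 to 97.0). Levels of single libraries and their group means are CPM, reads of a gene per megaread in all genes of that library. Fold changes come from edgeR's quasi-likelihood fit over all genes with TMM scaling, and a gene is called at a Benjamini-Hochberg adjusted p under 0.05. TMM scaling moved the median gene of the EGFP comparison by 0.128 on the log2 scale against plain CPM, and that of the mCherry comparison by -0.031. A count of 0 allows a level of up to 0.0912 to 0.184 CPM, depending on the library (3 counts, 95%, counting error only, since these PCR reads carry no molecular identifiers). In bulk samples, fewer cells of a type and less RNA per cell cannot be told apart.

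Among genes of smooth muscle, Myh11, Des and Myocd, named after their values were seen, were at or near 0. Myh11, the smooth muscle myosin heavy chain, had 77 reads over all 12 libraries and was at 0 in 5 of them, with no library above 0.969 CPM. Des, the intermediate filament of muscle, had 33 reads, and Myocd, the cofactor that commits cells to smooth muscle, had 22 reads, 18 of them in EGFP-positive libraries, and was at 0 in 8 libraries. The pericyte genes Abcc9 and Higd1b, named in the same way, had 21 and 5 reads over the 12 libraries. Kcnj8 had 124 reads, 80 of them in mCherry-negative libraries. It lay at 0 to 2.075 CPM, a range close to that of Rgs5 below. Other genes of the same lists, picked here after their values were seen, were expressed over the 12 libraries. Of the pericyte list, Notch3 stood at 9.97 to 68.0 CPM, Vtn at 4.70 to 32.0, Ndufa4l2 at 4.87 to 25.4 and Rgs5 at 0 to 2.20 CPM. Of the other smooth muscle genes, Cald1 stood at 45.75 to 73.3 CPM, Synpo2 at 2.07 to 30.0 and Smtn at 2.82 to 16.4 CPM. Which cells made the 10 transcripts was not tested. They are called contractile genes below for their products only, save Pdgfrb, a receptor that keeps the name of the list.

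RefSeq promoter windows on GRCm38.p6, 250 bases before the annotated start, were at hand for 7 of the 10 members, and 3 of them (Myl9, Cnn2 and Acta2) held a CArG box or a CArG box with 1 G or C in its core of 6 bases. The element is written alike on both strands, so a search of 1 strand covers both. Their stretches are shown because they hold such an element, in a search made with the counts known. Whether the elements bear on the levels of these genes was not tested. A CArG box occurred in 1.47% of 32851 promoter windows, the form with 1 G or C in 7.24%, and either in 8.59%. The windows of Cnn1, Tpm1, Tpm2 and Mylk held neither, which says only that these letters are not in those 250 bases. Capitals mark the elements, and the stretches of Myl9 and Cnn2 end before the start of the gene in GENCODE M21. Acta2 is shown as its sites with flanks, since an exon of GENCODE M21 reaches into its window.
Myl9, plus strand, chr2:156775214-156775419: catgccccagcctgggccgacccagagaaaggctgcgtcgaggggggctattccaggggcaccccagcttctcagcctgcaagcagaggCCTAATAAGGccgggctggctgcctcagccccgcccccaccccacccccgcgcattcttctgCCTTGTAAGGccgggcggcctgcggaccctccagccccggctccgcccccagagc
Cnn2, plus strand, chr10:79988350-79988583: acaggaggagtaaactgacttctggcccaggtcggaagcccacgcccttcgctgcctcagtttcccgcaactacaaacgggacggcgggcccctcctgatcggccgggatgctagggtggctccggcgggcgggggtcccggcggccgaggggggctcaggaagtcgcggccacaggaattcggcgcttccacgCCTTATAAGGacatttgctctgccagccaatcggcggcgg
Acta2, minus strand, chr19:34255438-34255467: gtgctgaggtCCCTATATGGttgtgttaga
Acta2, minus strand, chr19:34255388-34255417: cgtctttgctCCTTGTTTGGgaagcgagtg
Counted back from the RefSeq start, the CArG box of Myl9 lies at 161 to 152 bases and its second element at 99 to 90, the box of Cnn2 at 56 to 47, and the elements of Acta2 at 84 to 75 and 34 to 25. The RefSeq start lies 44 bases inside the GENCODE gene in Myl9, 16 in Cnn2 and 217 in Acta2. Both elements of Acta2 therefore lie inside its GENCODE gene.

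Acta2, the actin that defines contractile smooth muscle (ENSMUSG00000035783, GRCm38 chromosome 19, 34241090 to 34255590, minus strand), was highest in EGFP-positive cells. It stood at 12.2, 13.01 and 9.28 CPM in EGFP-positive replicates 1, 2 and 3 and at 4.95, 3.72 and 3.93 CPM in EGFP-negative replicates. In the Hcrt sort it stood at 4.25, 3.95 and 6.57 CPM in mCherry-positive and at 5.73, 5.002 and 10.1 CPM in mCherry-negative replicates. Every EGFP-positive library lay above every EGFP-negative library, whereas both mCherry groups overlapped, with the high value in mCherry-negative replicate 3. The group means of 11.5 ± 1.95, 4.198 ± 0.655, 4.92 ± 1.43 and 6.94 ± 2.75 CPM (SD, n = 3), in the order EGFP-positive, EGFP-negative, mCherry-positive and mCherry-negative, gave log2 fold changes of positive over negative of 1.55 ± 0.21 (SE) for EGFP and -0.52 ± 0.41 (SE) for mCherry. Actg2, the enteric gamma-actin (ENSMUSG00000059430, chromosome 6, 83512905 to 83536265, minus strand), had 0 to 3 reads per library, at most 0.123 CPM, and was at or under the limit of a count of 0 in every group. Of the stretches of 50 bases in Acta2 transcripts 0.326% also occur in transcripts of another gene, and of those in Actg2 0%, so their sequences are told apart at that length.

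**Figure D1:**
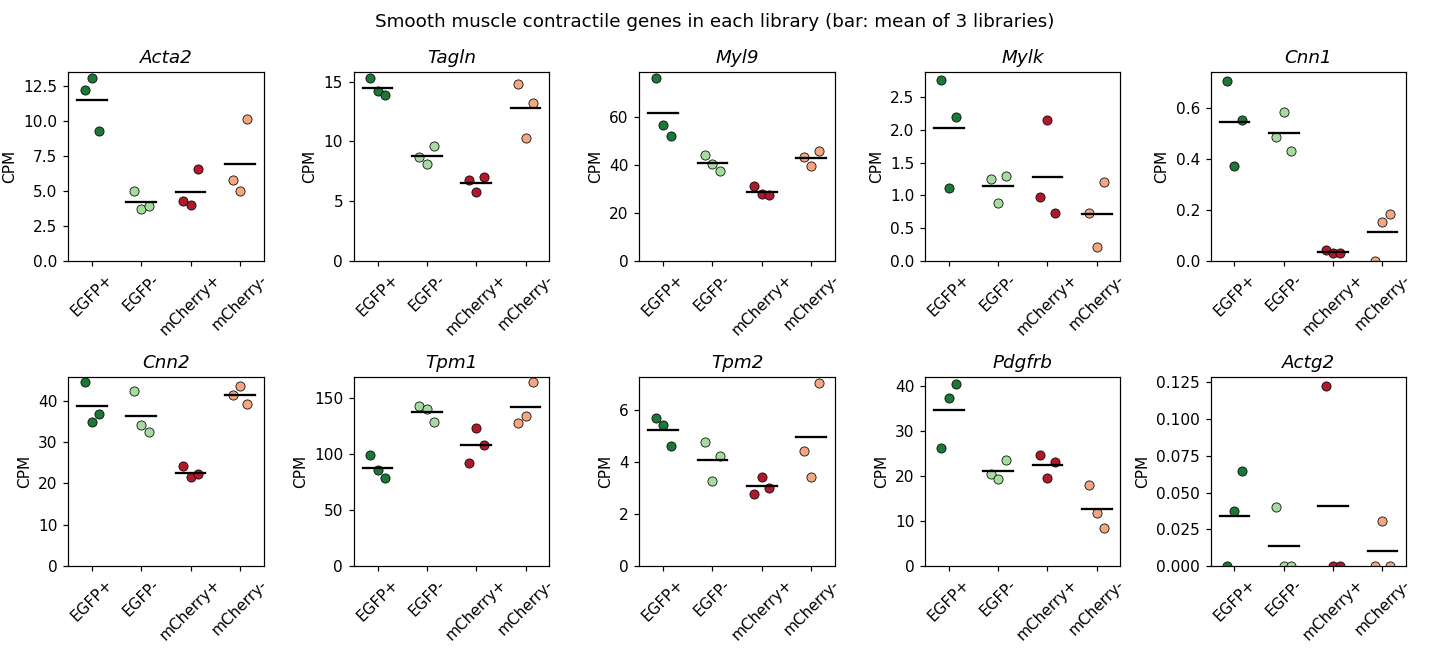
Plain CPM of the 10 genes in each of the 12 libraries (points) with the mean of 3 libraries (bar), by group, on linear axes from 0. Acta2, Tagln, Myl9 and Pdgfrb are highest in EGFP-positive cells, Tpm1 is lowest there, and Tagln, Myl9 and Cnn2 are lowest in mCherry-positive cells.

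Myl9, the regulatory light chain of smooth muscle and nonmuscle myosin (ENSMUSG00000067818, chromosome 2, 156775420 to 156781658, plus strand), separated 3 levels. Its EGFP-positive libraries held 76.5, 56.6 and 52.3 CPM and its EGFP-negative libraries 44.4, 40.5 and 37.6 CPM. Its mCherry-positive libraries held 31.2, 28.1 and 27.3 CPM and its mCherry-negative libraries 43.2, 39.5 and 46.0 CPM. EGFP-positive libraries were all above, and mCherry-positive libraries all below, the 6 negative libraries, while both negative groups overlapped at 40.8 ± 3.44 and 42.9 ± 3.29 CPM (SD, n = 3). The log2 fold change was 0.70 ± 0.16 (SE) for EGFP and -0.59 ± 0.20 (SE) for mCherry. Mylk, the kinase that activates this light chain (ENSMUSG00000022836, chromosome 16, 34745210 to 35002420, plus strand), was low and scattered: 2.76, 1.12 and 2.20 CPM in EGFP-positive, 1.26, 0.891 and 1.29 in EGFP-negative, 0.980, 2.15 and 0.730 in mCherry-positive, and 0.724, 0.215 and 1.20 CPM in mCherry-negative replicates. Neighbouring groups overlapped at each step of the order, and its log2 fold changes of 0.92 ± 0.42 (SE) and 0.85 ± 0.82 (SE) were not called.

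Tagln, the actin-binding protein transgelin or SM22 (ENSMUSG00000032085, chromosome 9, 45929619 to 45936058, minus strand), lay on opposite sides in the 2 sorts. It stood at 15.3, 14.2 and 13.9 CPM in EGFP-positive and at 8.72, 8.14 and 9.58 CPM in EGFP-negative libraries. It stood at 6.74, 5.73 and 7.05 CPM in mCherry-positive and at 14.8, 10.3 and 13.2 CPM in mCherry-negative libraries. EGFP-positive and mCherry-negative libraries overlapped at the top, EGFP-negative libraries lay below both, and mCherry-positive libraries lay below all others. The log2 fold changes were 0.82 ± 0.16 (SE) and -0.99 ± 0.30 (SE). On GENCODE M21, 62.4% of the exonic bases of Tagln also lie in exons of 1 overlapping gene, the largest overlap, and the overlapping genes Gm48529 and Pcsk7 are on the other strand. Of the stretches of 50 bases in Tagln 58.3% were shared, and since the kit does not mark strand, the assignment of reads in that stretch is uncertain. Pcsk7, a protease of prohormones, had log2 fold changes of -0.09 ± 0.15 (SE) for EGFP and -0.43 ± 0.20 (SE) for mCherry, neither called. Gm48529, which shares most of those stretches (55.4% of Tagln), was not analysed here.

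The calponins split by type. Cnn2, the calponin of nonmuscle and smooth muscle cells (ENSMUSG00000004665, chromosome 10, 79988584 to 79996062, plus strand), stood at 24.1, 21.4 and 22.2 CPM in mCherry-positive libraries and at 41.4, 43.5 and 39.1 CPM in mCherry-negative libraries, with no overlap. Its EGFP-positive libraries at 44.5, 34.9 and 36.7 CPM overlapped its EGFP-negative libraries at 42.4, 34.2 and 32.3 CPM. The log2 fold changes were 0.20 ± 0.16 (SE) for EGFP and -0.89 ± 0.20 (SE) for mCherry. Cnn1, the calponin of differentiated smooth muscle (ENSMUSG00000001349, chromosome 9, 22099216 to 22109630, plus strand), had 10 to 17 reads in EGFP-positive libraries, 7 to 15 in EGFP-negative, 1 in each mCherry-positive and 0 to 5 in mCherry-negative libraries. All 6 libraries of the MCH sort, at 0.372 to 0.705 CPM, lay above all 6 of the Hcrt sort, at 0 to 0.184 CPM, but its fractions overlapped within each sort. How many of all genes separate the sorts in this way was not counted, and virus, reporter and RNA input differ between them.

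The tropomyosins also differed from each other. Tpm1 (ENSMUSG00000032366, chromosome 9, 67022590 to 67049406, minus strand), which is made in muscle and many other cells, was lower in the positive cells of both sorts. It stood at 98.6, 85.3 and 78.9 CPM in EGFP-positive and at 143, 140 and 129 CPM in EGFP-negative libraries. It stood at 92.0, 123 and 108 CPM in mCherry-positive and at 128, 134 and 164 CPM in mCherry-negative libraries. Neither sort showed an overlap between fractions, and the log2 fold changes were -0.54 ± 0.12 (SE) and -0.42 ± 0.18 (SE). Tpm2 (ENSMUSG00000028464, chromosome 4, 43514711 to 43523765, minus strand), the beta-tropomyosin of muscle, stood at 5.70, 5.43 and 4.62 CPM against 4.78, 3.26 and 4.24 CPM in the MCH sort and at 2.78, 3.42 and 3.01 CPM against 4.41, 3.44 and 7.05 CPM in the Hcrt sort. Its log2 fold changes of 0.47 ± 0.23 (SE) and -0.71 ± 0.43 (SE) had the signs of Acta2, Tagln and Myl9 and were not called.

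Pdgfrb, the platelet-derived growth factor receptor of mural cells (ENSMUSG00000024620), was the only member with all positive libraries above all negative ones in both sorts. EGFP-positive libraries held 26.25, 37.2 and 40.3 CPM and EGFP-negative libraries 20.5, 19.3 and 23.6 CPM. mCherry-positive libraries held 24.55, 19.55 and 23.05 CPM and mCherry-negative libraries 18.05, 11.7 and 8.48 CPM. The log2 fold changes were 0.83 ± 0.19 (SE) and 0.79 ± 0.31 (SE).

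In the EGFP comparison 9 of the 10 members passed the filter on low counts, which Actg2 did not, and 5 were called: Acta2, Tagln, Myl9 and Pdgfrb higher and Tpm1 lower in EGFP-positive cells. Of all 16326 genes tested there, 16.1% were called, 8.99% higher and 7.07% lower. In the mCherry comparison 8 members passed the filter and edgeR called 0, while 5 had an unadjusted p under 0.05 and DESeq2 called 2 (Tagln and Cnn2, both lower). Of all 17369 genes tested there, 1.20% were called by edgeR, 0.541% higher and 0.656% lower. The EGFP calls depended on single libraries: 2 members were called without EGFP-positive replicate 2, 2 without EGFP-negative replicate 1, 1 without EGFP-negative replicate 2 and 3 without EGFP-negative replicate 3, and Acta2 was among them each time. In plain CPM the fractions did not overlap in 5 members of the MCH sort and in 6 of the Hcrt sort, against 39.7% and 27.3% of the 14684 genes averaging 1 CPM or more. With TMM scaling they did not overlap in 6 members of each sort, Tpm2 being added in the MCH sort, against 37.0% and 27.5% of genes.

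**Figure D2:**
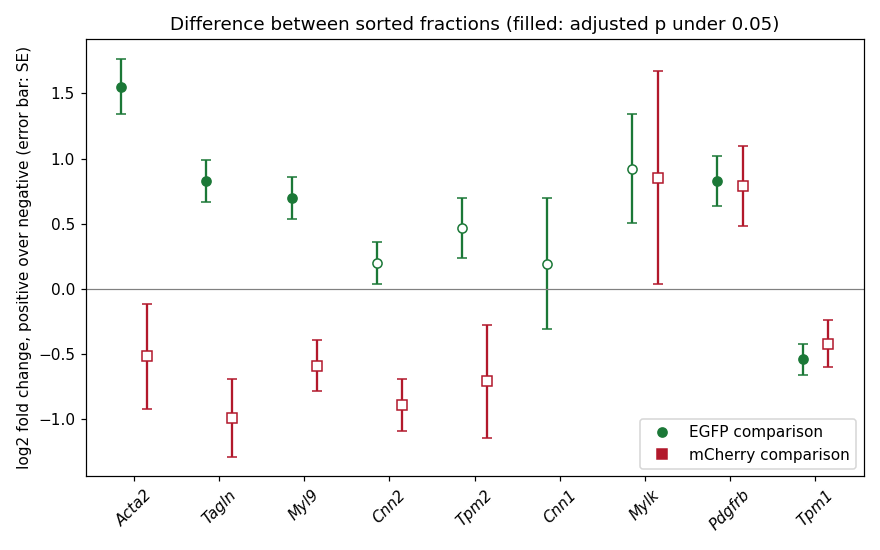
Log2 fold change of positive over negative cells for the 9 members that passed the filter, with SE, for the EGFP comparison (circles) and the mCherry comparison (squares); filled symbols mark adjusted p under 0.05. Acta2, Tagln, Myl9, Cnn2 and Tpm2 lie above 0 for EGFP and below 0 for mCherry, while Mylk, Pdgfrb and Tpm1 have the same sign in both.

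The 2 reporters were then set against each other in 1 fit of all 12 libraries, as the mCherry effect minus the EGFP effect. Of the 9 members that passed the filter 4 were called, all with the mCherry effect below the EGFP effect: Acta2 at -2.10 ± 0.44 (SE), Tagln at -1.85 ± 0.29, Myl9 at -1.32 ± 0.24 and Cnn2 at -1.12 ± 0.23 on the log2 scale. Of all 18063 genes tested 1.44% were called, 0.559% in that direction. Tpm2 at -1.21 ± 0.45 (SE) and Cnn1 at -1.83 ± 1.35 (SE) had the same sign and were not called. For Pdgfrb the difference was -0.06 ± 0.36 (SE), for Tpm1 0.09 ± 0.21 (SE) and for Mylk -0.09 ± 0.93 (SE), none called. The shared fit takes 1 spread for both sorts, although edgeR's common coefficient of variation was 0.189 for the EGFP libraries and 0.382 for the mCherry libraries. Over 17 alternatives the differences kept their sign, at -2.33 to -1.75 for Acta2, -1.98 to -1.75 for Tagln, -1.39 to -1.13 for Myl9 and -1.22 to -0.998 for Cnn2. Their calls depended on single libraries: without EGFP-negative replicate 1 or EGFP-negative replicate 2 edgeR called 0 members (5 and 4 had an unadjusted p under 0.05, and 40 and 35 genes were called in all; DESeq2, run on all libraries only, called 4 members), without EGFP-positive replicate 2 or EGFP-negative replicate 3 it called 1. Calls numbered 2 without EGFP-positive replicate 1, EGFP-positive replicate 3 or mCherry-positive replicate 2, and 3 without mCherry-positive replicate 3 or mCherry-negative replicate 2.

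The members did not all vary together over the 12 libraries. On log2(CPM + 1), Tagln and Myl9 correlated at r = 0.863 (Pearson, n = 12 libraries), Myl9 and Cnn2 at 0.791, Tagln and Tpm2 at 0.779 and Acta2 and Tagln at 0.759. Pdgfrb and Tpm1 ran against each other, at r = -0.864. Libraries of a group share their sort and fraction, so these values include the group differences given above. With group means taken out, the correlation of Pdgfrb with Tpm1 was still -0.847 and that of Acta2 with Tpm2 0.759, whereas Tagln and Cnn2 were at 0.005 and Tagln and Myl9 at 0.330. Against the mean of the other members, r was 0.629 to 0.923 for Acta2, Tagln, Myl9, Cnn2 and Tpm2. It was 0.311 for Mylk, -0.026 for Pdgfrb and -0.346 for Tpm1, so a mean over the members stands mainly for the former. These values are descriptions of 12 points and carry no test. The genes outside the list whose pattern was most like the mean of the 8 members with at least 1 CPM were Oxa1l (r = 0.900), Rfxank (0.897), Slc35c2 (0.888), Suox (0.886), Socs3 (0.882), Tmem98 (0.876), Fahd1 (0.874) and Mdk (0.872). Socs3, an inhibitor of cytokine signalling, stood at 333 to 414 CPM in EGFP-positive, 222 to 268 in EGFP-negative, 183 to 246 in mCherry-positive and 258 to 273 CPM in mCherry-negative libraries.

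**Figure D3:**
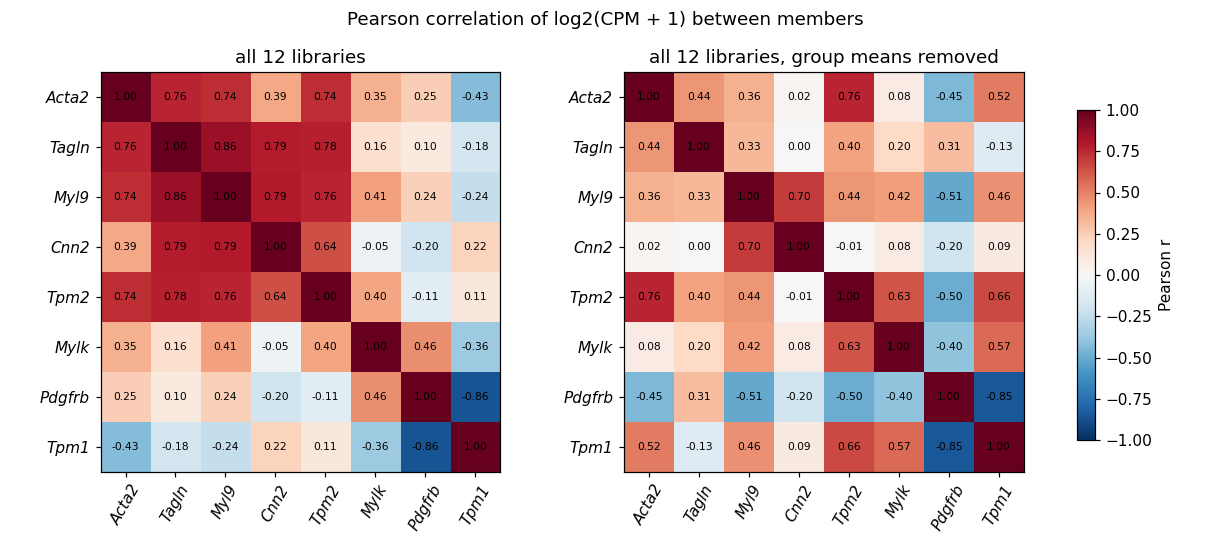
Pearson correlation of log2(CPM + 1) between the 8 members with a mean of at least 1 CPM, over 12 libraries (left) and after the mean of each group was subtracted (right). Tagln, Myl9 and Cnn2 correlate at 0.787 or more on the left, and the pair of Pdgfrb and Tpm1 lies at -0.864 on the left and -0.847 on the right.

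Set against their nonmuscle relatives, most members were minor transcripts, here compared as CPM per kb of exon. Acta2 stood at 5.23 CPM per kb in EGFP-positive and 1.91 in EGFP-negative cells, and Actb, the cytoplasmic beta-actin, at 665 and 1238. Acta2 was 0.722% to 0.798% of the summed actin level in EGFP-positive, 0.142% to 0.165% in EGFP-negative, 0.455% to 0.761% in mCherry-positive and 0.478% to 0.639% in mCherry-negative libraries. Its share was higher in EGFP-positive libraries than in EGFP-negative ones without overlap, and Actb itself fell in EGFP-positive cells (log2 fold change -0.79 ± 0.13 SE, adjusted p 0.00369 by edgeR's quasi-likelihood test). Cnn2 was 2.45% to 5.89% of the summed calponin level over the 12 libraries and Cnn1 at most 0.0622%, the rest being Cnn3. Tagln was 2.56% to 7.61% of the transgelins, Tpm2 0.709% to 1.60% of the tropomyosins and Tpm1 9.01% to 18.2%. Myl9 had the highest share among the members, at 28.3% to 30.9% of the regulatory light chains in EGFP-positive and 19.2% to 20.7% in EGFP-negative libraries. In the Hcrt sort its share overlapped, at 20.01% to 22.8% in mCherry-positive and 20.01% to 26.4% in mCherry-negative libraries. These shares are as counted, and some 50-base stretches of the relatives also occur in other genes, which makes their counts uncertain. The shared part was 37.4% of Actg1, 24.0% of Cnn3, 23.2% of Tpm3, 21.1% of Myl12a, 15.7% of Tpm4, 9.12% of Actb and 8.76% of Myl12b. For Myl9 it was 0%, so its share of the light chains is uncertain through its relatives.

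**Figure D4:**
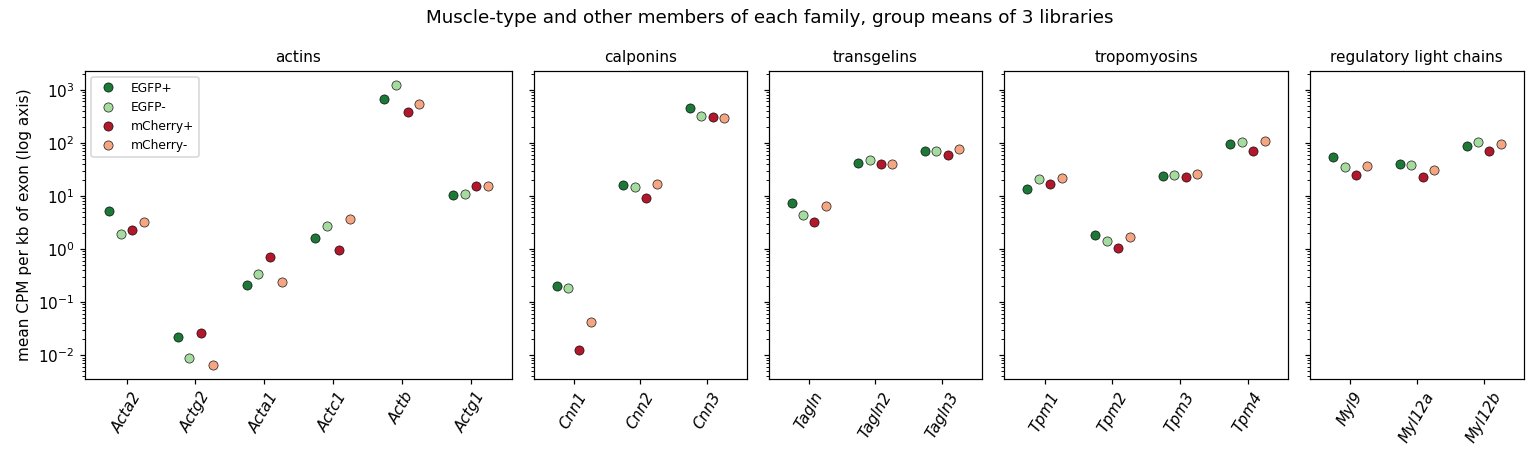
Mean CPM per kb of exon (log axis) of the members and their relatives in 5 gene families, 1 point per group of 3 libraries. Actb exceeds Acta2 in every group, Cnn3 exceeds Cnn2 and Cnn1, and Myl9 is below Myl12b in every group and above Myl12a in all groups but EGFP-negative cells.

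The counts of called genes in this and the following lists stand beside 16.1% of all genes called in the EGFP comparison. In the mCherry comparison that share was 1.20%, and in the difference of effects 1.44%. Of 23 other smooth muscle genes, 19 passed the filter in the EGFP comparison, 6 rose and 1 fell. Their median log2 fold change was 0.51 against -0.01 over all genes. The rises included Itga7, a laminin receptor of muscle and glia (1.22 ± 0.15 SE), the actin bundler Synpo2 (1.21 ± 0.18) and the muscle LIM protein gene Pdlim3 (0.93 ± 0.21). The fall was Ppp1r12b, a targeting subunit of myosin phosphatase (-0.74 ± 0.21 SE). In the mCherry comparison edgeR called 0 of 20 of these genes, DESeq2 called 3, 6 had an unadjusted p under 0.05, and their median was 0.34 against 0.02 over all genes. Flna, a crosslinker of actin, stood there at a log2 fold change of 0.34 ± 0.29 (SE). In the test of the difference between both effects 0 of 22 were called by edgeR, 5 had an unadjusted p under 0.05 and DESeq2 called 1.

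Of 21 nonmuscle actin and myosin genes, 2 rose (Cnn3 at 0.63 ± 0.08 and Myh14 at 0.56 ± 0.14, log2 fold change and SE) and 2 fell (Actb and the thymosin gene Tmsb10, at -0.82 ± 0.22) in EGFP-positive cells, with a list median of 0.04. In the mCherry comparison 0 were called by edgeR and 1 by DESeq2, 8 had an unadjusted p under 0.05, and the median was -0.13. Among 16 cofactors and regulators of Srf, 14 passed the filter. Fhl2, a LIM cofactor, fell in EGFP-positive cells from 26.3 ± 2.18 to 7.54 ± 0.275 TMM-scaled CPM (SD, n = 3), a log2 fold change of -1.80 ± 0.16 (SE), and was called in the difference of effects as well (2.23 ± 0.30 SE). Wwtr1, the YAP relative TAZ (0.89 ± 0.19), Fhl1 (0.49 ± 0.14) and the ETS factor Elk3 (0.48 ± 0.14) rose. Srf itself was not called, at -0.46 ± 0.24 (SE) for EGFP and -0.82 ± 0.25 (SE) for mCherry, with 10.2 to 20.9 against 20.7 to 23.6 CPM and 17.7 to 28.7 against 31.0 to 49.5 CPM. In the mCherry comparison 0 of 14 were called by edgeR and 3 by DESeq2, with 4 at an unadjusted p under 0.05.

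Of 16 genes of the TGF-beta pathway, a known inducer of Acta2 and Tagln, 14 passed the filter in the EGFP comparison. Of these 2 rose and 1 fell, where 16.1% of all genes were called. The ligand Tgfb2 rose (1.01 ± 0.13 log2 fold change and SE), as did Ltbp1, which stores the latent ligand in matrix (1.45 ± 0.34), and Tgfbi, a matrix protein induced by the ligand, fell (-2.25 ± 0.32). In the mCherry comparison edgeR called 0 of 16, DESeq2 called 3 and 4 had an unadjusted p under 0.05, with a median of 0.94. Of 19 genes of the PDGF pathway and pericytes, 14 passed the filter in the EGFP comparison, 1 rose and 5 fell. The rise was Pdgfd, a ligand of Pdgfrb (1.88 ± 0.25), and the falls included Vtn (-1.91 ± 0.19), Cspg4 (-1.59 ± 0.20) and Pdgfra (-1.42 ± 0.26), of which Cspg4 and Pdgfra are also genes of oligodendrocyte precursors. In the mCherry comparison edgeR called 0 of 17, DESeq2 called 2 and 3 had an unadjusted p under 0.05. These 5 falls stand beside the higher Pdgfrb of EGFP-positive cells.

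Markers of other cell types also differed between EGFP-positive and EGFP-negative cells, in both directions. In the EGFP comparison 14 of 15 fibroblast and meningeal markers passed the filter and 9 fell, and the summed level of the list was 207 to 232 CPM in EGFP-positive against 539 to 580 CPM in EGFP-negative libraries, with Col1a1 at -3.20 ± 0.19 and Dcn at -3.79 ± 0.21 (log2 fold change, SE). Of 8 astrocyte markers 7 rose and 1 fell (S100b, named after its value was seen), and their summed level was 15970 to 19670 against 9013 to 9305 CPM. All of the oligodendrocyte list but 1 gene fell (7 of 8), as did 7 of 8 microglia, 6 of 8 neuron and 4 of 8 pituitary markers. The other microglia marker, P2ry12, named after its value was seen, rose (1.41 ± 0.27 log2 fold change and SE). Of 13 endothelial markers 1 rose, Kdr, and 7 did not pass the filter. Those 7 included the defining genes Cdh5, Cldn5 and Tie1, which had at most 0.490 CPM in any library. They were named after their values were seen. The other endothelial markers that passed the filter were expressed and not called by edgeR. In its highest library Egfl7 stood at 5.189 CPM, Vwf at 6.517, Flt1 at 2.402, Esam at 1.794 and Pecam1 at 1.106 CPM. Egfl7, Vwf, Flt1 and Esam had reads in every library. Of 15 striated muscle markers 1 rose (Tnnt1, at 1.32 ± 0.36 SE), and Tnnc2 and Myf5 were at 0 in all libraries. In the Hcrt sort the astrocyte markers summed to 9634 to 13480 CPM in mCherry-positive against 4799 to 8521 CPM in mCherry-negative libraries, where Gfap was the 1 marker of all these lists that edgeR called (1.45 ± 0.21 SE). The pituitary sum reached 5541 CPM in mCherry-positive libraries, from 9.07 CPM, against 7.48 to 222 CPM in mCherry-negative ones. The summed astrocyte level lay higher in the positive libraries of both sorts without overlap. In the mCherry comparison 7 of the 8 astrocyte markers had a positive log2 fold change and 1 a negative one. In the difference of effects edgeR called 1 astrocyte marker, with the mCherry effect below the EGFP effect. The part of any of these cell types in the levels of the contractile genes was not tested.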

How the data were processed

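The authors deposited a table of raw read counts by Ensembl identifier for each library, and the submitters' processing notes name cutadapt 1.8, STAR 2.5.2b, HTSeq 0.6.1 and GRCm38. The sources used here do not give the annotation release or strand option. The 5 closing entries of each file name no gene and were left out of library sizes. Of 48709 identifiers 48349 matched GENCODE M21, which gave symbols, GRCm38 positions and exon lengths. Comparisons used edgeR 4.0.16 in R 4.3.3: TMM factors, filterByExpr (minimum count 10, minimum total 15), group as the only term, the quasi-likelihood test and Benjamini-Hochberg adjustment over all genes; each sort was fitted alone and the difference of effects on all 12 libraries. Each SE was taken as |log2 fold change| over the root of its F statistic. Alternatives were DESeq2 1.42.0, its size factors, other filters, a replicate block and leaving out each library. The fit was tested on simulated data. The members, lists and rules were chosen with earlier results of these data known. All 10 members are named, and per other list up to 4 called genes of smallest adjusted p or 2 of highest level. The 8 genes (mean of at least 5 CPM) most like the mean of the members are named too. Mkl1, Mkl2 and Ctgf were matched as Mrtfa, Mrtfb and Ccn2, and Pcsk7 was added after its overlap with Tagln was seen. One gene that the rule names is not reported here.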

Additional observations from a re-analysis of the deposited data

Results flagged for a closer look

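The effects of both reporters differed, by the test of the difference in the shared edgeR fit, for 4 contractile genes, given as mCherry effect minus EGFP effect on the log2 scale: Acta2 at -2.10, Tagln at -1.85, Myl9 at -1.32 and Cnn2 at -1.12. For Acta2, Tagln and Myl9 the EGFP effect was positive and called by edgeR and the mCherry effect negative and not called by it, and for Cnn2 edgeR called neither effect on its own. DESeq2 called the mCherry effects of Cnn2 (adjusted p 0.00193) and Tagln (adjusted p 0.0265), and edgeR with no filter that of Cnn2 (adjusted p 0.0488). Without EGFP-negative replicate 1 or EGFP-negative replicate 2, edgeR called 0 of the 4 differences. The genes were listed with results of these data known, and virus, reporter and RNA input differ between the sorts together.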

How the results depend on the processing

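Direction and call held for 86 of 98 member values under the alternatives of the EGFP comparison, with 12 calls lost, for 84 of 87 in the mCherry comparison, with 3 gained, and for 116 of 152 in the difference of effects, with 22 calls lost and 14 signs turned. The mCherry comparison called 778 genes and 1 member (Cnn2) with no filter, 316 genes with a stricter filter, 1476 genes and 2 members with DESeq2, and 343 genes with the replicate block. The difference of effects called 675 genes with no filter and 890 with DESeq2. Leaving out each library in turn, the EGFP comparison called 1137 to 5244 genes and 1 to 5 members, the mCherry comparison 0 to 212 genes and 0 members, and the difference of effects 27 to 591 genes and 0 to 4 members. edgeR called 0 genes of the mCherry comparison without mCherry-positive replicate 3, mCherry-negative replicate 1 or mCherry-negative replicate 2, where 2439, 3673 and 2764 genes had an unadjusted p under 0.05; DESeq2 was run on all 6 libraries only. The cause of these changes was not tested. Uncalled differences turned sign: with the replicate block Mylk stood at 0.0021 and Pdgfrb at 0.017, and leaving out single libraries gave -0.70 to 0.49 for Mylk, -0.29 to 0.24 for Pdgfrb and -0.032 to 0.20 for Tpm1. Deviations of libraries with the same number correlated at 0.169, 0.000948 and 0.0656 in the MCH sort and at 0.126, -0.0205 and 0.0327 in the Hcrt sort. Unlike numbers gave -0.15 to 0.0928 and -0.14 to 0.123, so the pair numbered 1 was highest in each sort. The main fits did not take the numbers as pairs. The replicate block called 3409 genes in the EGFP comparison against 2622 without it. It left the member calls at 5, 0 and 4 in the 3 comparisons. TMM scaling moved member group means by factors of 0.953 to 1.096. Depth limits Actg2 and Cnn1, at 0 to 3 and 0 to 17 reads per library.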
